A study of Homo sapiens with 12 samples.

Results

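The BCL2 family was followed through 10 of its genes in a pair of human B-cell acute lymphoblastic leukaemia cell lines given an enzyme that degrades arginine. The members were found by matching gene symbols to the Ensembl identifiers of the deposited count table, in which they are 10 of 60664 genes, and all 10 passed the filter on low counts. They comprise the anti-apoptotic genes BCL2, BCL2L1 and MCL1, the effectors BAX and BAK1, and the BH3-only genes BCL2L11, BBC3, PMAIP1, BID and BMF. TOM-1 carries the Philadelphia chromosome, the translocation that fuses BCR to ABL1. In RS4;11 the gene KMT2A is rearranged. Each line was grown in RPMI with fetal bovine serum. In log phase it was either left as a control culture or given ADI-PEG20, a pegylated arginine deiminase that degrades extracellular arginine, at 1000 ng/ml for 24 hours. The genotype of both lines is labelled WT. Poly(A) RNA was sequenced from 3 libraries in each of the 4 groups, TOM-1 control, TOM-1 ADI-PEG20, RS4;11 control and RS4;11 ADI-PEG20. The labels do not say whether the 3 libraries of a group came from separate cultures, so p-values measure only the spread between these libraries. Each rearrangement is represented by 1 cell line, so that it cannot be told apart from other differences between the lines.

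BCL2 family proteins decide whether the outer membrane of the mitochondrion is breached. BAX and BAK1 form the pores that release cytochrome c, the anti-apoptotic proteins hold them and their activators in check, and the BH3-only proteins respond to stress by binding the anti-apoptotic proteins or by activating the effectors directly. Lymphoid leukaemias often depend on BCL2 or MCL1, and BH3-mimetic drugs were designed to occupy the same groove that BH3-only proteins bind. Much of the control of this family, including cleavage of BID, phosphorylation of BCL2L11 protein and turnover of MCL1 protein, happens after transcription and is not seen in RNA.

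Total counts ran from 18958144 to 35956959 per library. TOM-1 control replicate 3 stood apart: reads fell on 14963 genes in it, against 19857 to 21997 in the other 11 libraries. Its log-scale correlation across genes with the other TOM-1 controls was 0.926 and 0.921, whereas every other pair of replicates reached at least 0.975. Genes with long transcripts were low in that library, with a median log2 level relative to replicates 1 and 2 of 0.34 in the shortest of 4 classes of exonic length and -0.73 in the longest. All replicate pairs differed by more than sampling noise, with a chi-square of at least 4.98 per degree of freedom. Of the B lymphoblast markers, CD79A was at 121 CPM (counts scaled to the size of the library) or more in every library, CD79B at 52.1 CPM or more, PAX5 at 443 CPM or more and EBF1 at 80.1 CPM or more, so that the B-cell label held. CD3D, CD3E and CD2 summed to at most 0.319 CPM. The myeloid markers MPO, CSF1R and LYZ summed to between 10.2 and 25.4 CPM, with MPO from 9.79 to 21.0 CPM in TOM-1 and CSF1R from 12.1 to 18.3 CPM in RS4;11. In TOM-1, CSF1R fell from 4.09, 4.17 and 4.36 CPM to 0.385, 0.573 and 0.393 CPM under ADI-PEG20 (edgeR, adjusted p = 4.49e-06), and its part in any result was not tested. The line markers HOXA9 and MEIS1 were at 0 counts throughout TOM-1 and at 68.4 CPM or more throughout RS4;11. ASS1, the enzyme that lets cells remake arginine from citrulline, had 0 counts in the TOM-1 controls and at most 0.599 CPM in treated TOM-1. In RS4;11 it stood at 140 to 180 CPM in control and at 207 to 260 CPM with ADI-PEG20. The part of ASS1 in any result was not tested.

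Members departed in this library in both directions and by unequal amounts. BMF departed least, and its SD over the TOM-1 controls, 0.698 CPM, was below the 1.18 CPM of treated TOM-1. In TOM-1 control replicate 3, BAX stood at 2.18 times the mean of replicates 1 and 2, BBC3 at 1.99 times, BAK1 at 1.68, BID at 1.62 and BCL2L1 at 1.55 times. BCL2 stood at 0.451 times, MCL1 at 0.536, PMAIP1 at 0.723, BCL2L11 at 0.754 and BMF at 0.872 times. BCL2, whose 11765 exonic bases are the most of the 10, was the lowest. Not every member followed transcript length: PMAIP1 has only 2235 exonic bases and was also low, and BID was high with 4446, in a length class whose median was -0.24. Results are therefore given with all 12 libraries and, for the members and for counts and medians that moved, also without this library. CPM are shares of the RNA in a culture, so that a change in RNA per cell and a change in which cells were present cannot be told apart.

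**Figure D1:**
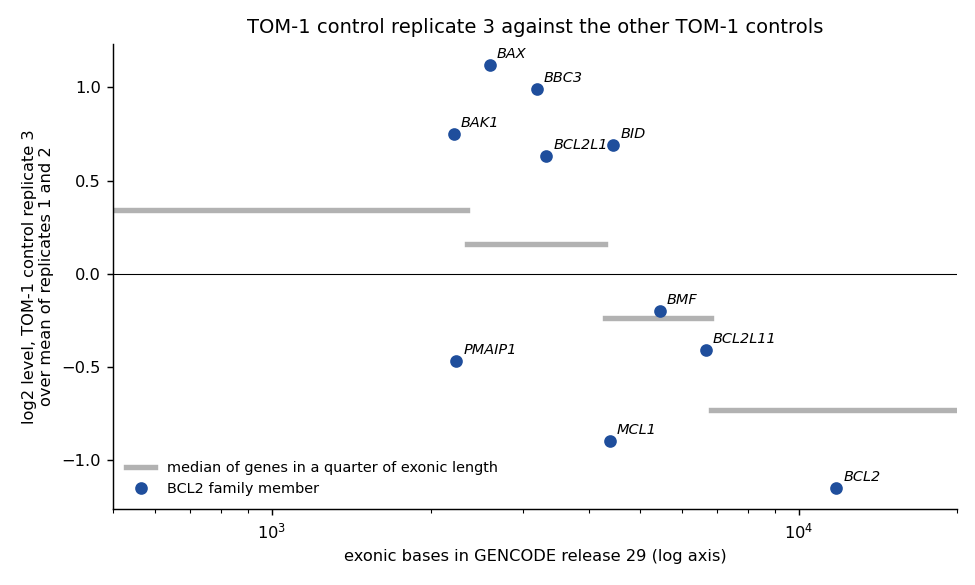
Level of each BCL2 family member in TOM-1 control replicate 3 over the mean of replicates 1 and 2 (vertical axis, log2) against exonic bases (horizontal axis, log scale), with the median of all genes in each of 4 length classes as grey bars. BAX at 1.12 and BBC3 at 0.99 lie above the bars and BCL2 at -1.15 lies lowest.

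In TOM-1, ADI-PEG20 moved each of the 5 BH3-only genes and none of the other 5 members when all 12 libraries were used. PMAIP1, BBC3 and BMF rose, and BID and BCL2L11 fell. With a Benjamini-Hochberg adjusted p under 0.05 in edgeR as the threshold, 5 of the 10 members were called, against 31.9% of the 17349 genes tested (15.9% higher and 15.9% lower). For the same 5 members no treated library fell within the range of the controls, 3 above it and 2 below, against 46.2% of all genes (26.1% above and 20.1% below). The median log2 fold change was 0.69 over the BH3-only members, 0.20 over the anti-apoptotic members and -0.07 over the effectors, against 0.05 over all genes tested. They became 0.62, -0.04 and 0.31, against 0.00, when TOM-1 control replicate 3 was left out, so that the latter pair turned sign. Of the anti-apoptotic members 0 of 3 were called by edgeR and by DESeq2, with BCL2L1 at an unadjusted p under 0.05, and of the effectors 0 of 2 were called by either tool, with 0 at an unadjusted p under 0.05. Without TOM-1 control replicate 3, 8 of the 10 were called, 5 higher and 3 lower, against 41.6% of 18321 genes (21.8% higher and 19.8% lower). The 3 calls gained were BCL2L1 and BAX, higher, and BCL2, lower.

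The stretches upstream of the BH3-only genes are shown because these 5 members changed in TOM-1, and in opposite directions. They are the 250 bases before each gene's start in RefSeq on GRCh38.p14, on the gene's own strand from 5′ to 3′. All 5 genes were matched by symbol. Windows from 250 bases before to 50 after the start were searched on both strands for the amino acid response core TGATGNAA, the cyclic AMP response core TGACG, the E-box CACGTG, the forkhead element GTAAACA and the p53 decamer. Capitals mark the matches. No 2 matches overlap. They lie at chr18:59899746-59899995 (plus strand) for PMAIP1, chr19:47232668-47232917 (minus strand) for BBC3, chr15:40108880-40109129 (minus strand) for BMF, chr2:111120664-111120913 (plus strand) for BCL2L11 and chr22:17774470-17774719 (minus strand) for BID.
PMAIP1: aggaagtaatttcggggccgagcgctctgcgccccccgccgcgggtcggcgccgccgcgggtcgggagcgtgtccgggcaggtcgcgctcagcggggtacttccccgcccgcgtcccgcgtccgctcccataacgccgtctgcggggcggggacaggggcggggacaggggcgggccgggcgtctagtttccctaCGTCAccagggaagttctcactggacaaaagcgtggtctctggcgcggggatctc
BBC3: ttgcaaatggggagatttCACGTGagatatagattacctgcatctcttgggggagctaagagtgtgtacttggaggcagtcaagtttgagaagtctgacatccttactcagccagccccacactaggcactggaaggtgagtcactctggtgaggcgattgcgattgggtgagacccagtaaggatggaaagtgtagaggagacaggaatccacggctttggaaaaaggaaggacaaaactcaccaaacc
BMF: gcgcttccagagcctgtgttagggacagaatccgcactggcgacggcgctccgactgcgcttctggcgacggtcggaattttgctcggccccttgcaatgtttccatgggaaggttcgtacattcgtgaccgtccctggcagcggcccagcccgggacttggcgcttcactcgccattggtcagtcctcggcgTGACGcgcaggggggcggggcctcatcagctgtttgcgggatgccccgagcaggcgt
BCL2L11: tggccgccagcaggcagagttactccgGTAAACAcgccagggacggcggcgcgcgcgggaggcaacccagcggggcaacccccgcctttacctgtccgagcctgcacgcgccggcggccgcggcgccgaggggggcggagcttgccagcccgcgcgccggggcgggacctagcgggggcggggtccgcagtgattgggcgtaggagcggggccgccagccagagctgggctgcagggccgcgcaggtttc
BID: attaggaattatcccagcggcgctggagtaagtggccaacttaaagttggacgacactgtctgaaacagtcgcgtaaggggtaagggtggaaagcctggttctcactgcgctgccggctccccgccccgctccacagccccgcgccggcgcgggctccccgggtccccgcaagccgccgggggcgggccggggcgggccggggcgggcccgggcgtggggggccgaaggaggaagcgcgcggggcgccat
The windows of PMAIP1 and BMF held the cyclic AMP response core, at -55 (as CGTCA, on the other strand) and -57 from the start. That of BBC3, which rose in treated TOM-1 as PMAIP1 and BMF did, held no such core. That core occurs in 24.6% of the 35116 RefSeq promoter windows. The window of BBC3 held an E-box at -232, as do 7.26% of windows, and that of BCL2L11 a forkhead element at -223, as do 3.42%. The window of BID held none of these motifs. The amino acid response core (3.62% of windows) and the p53 decamer (6.63%) were found in none of the 5. The window of BBC3 was 48.0% G or C with 5 CG dinucleotides, whereas the other 4 ranged from 65.0% to 74.7%, and the median of all windows was 58.7%. The RefSeq starts differ from the GENCODE release 29 gene starts: the windows of BCL2L11 and BID lie wholly inside the gene spans of that release, and those of PMAIP1, BBC3 and BMF in part. Counts per gene do not show which start a transcript used, and these matches are a description of the letters in the windows.

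PMAIP1 encodes NOXA, a BH3-only protein that binds MCL1. It was measured at 86.4, 75.0 and 58.3 CPM in TOM-1 control and at 247, 252 and 238 CPM with ADI-PEG20. The lowest treated library lay far above the highest control. The fold change was 3.35 (log2 1.74, SE 0.14, edgeR adjusted p = 7.09e-06), and with TOM-1 control replicate 3 left out it was 3.03 (log2 1.60). PMAIP1 (ENSG00000141682) lies on chromosome 18 from 59899948 to 59904306 in GENCODE release 29 on GRCh38 and shares no exonic base with another gene.

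BBC3 encodes PUMA, which binds all anti-apoptotic members. Its levels were 13.8, 12.9 and 26.5 CPM in TOM-1 control and 53.5, 63.6 and 57.0 CPM with ADI-PEG20. The groups did not overlap, although the third control was well above the other two. Its log2 fold change was 1.72 (SE 0.24, edgeR adjusted p = 0.00031) with all libraries, a fold of 3.28. Without that control it was 2.12 (SE 0.13, adjusted p = 2.07e-11), a fold of 4.33. BBC3 (ENSG00000105327) lies on chromosome 19 from 47220822 to 47232766, and 2.4% and 2.5% of its exonic bases are shared with microRNA genes on the same and the opposite strand.

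BMF, a BH3-only protein known to bind the dynein light chain DYNLL2, was measured at 9.38, 9.48 and 8.22 CPM in TOM-1 control. With ADI-PEG20 it stood at 13.3, 15.6 and 14.8 CPM. All treated libraries were above all controls. BMF changed by 0.69 on the log2 scale (SE 0.20, edgeR adjusted p = 0.0204), and 0.62 without TOM-1 control replicate 3. These values rest on 149 to 408 counts per library. The call was lost without TOM-1 ADI-PEG20 replicate 2 or without replicate 3, where the adjusted p reached up to 0.0944.

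BID, which caspase 8 cleaves to carry the death receptor signal to mitochondria, went the other way. It was measured at 24.5, 27.8 and 42.3 CPM in TOM-1 control and 13.9, 13.4 and 10.7 CPM with ADI-PEG20. Every treated library lay below every control. BID fell by 1.31 on the log2 scale (SE 0.19, edgeR adjusted p = 0.00039), 2.49-fold, and with TOM-1 control replicate 3 left out it fell by 1.05. The gene (ENSG00000015475, chromosome 22, 17734138 to 17774770) shares no exonic base with another.

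BCL2L11 encodes BIM, which binds all anti-apoptotic members and activates BAX and BAK1. It stood at 34.0, 40.5 and 28.1 CPM in TOM-1 control and at 22.8, 19.3 and 24.0 CPM with ADI-PEG20. The treated libraries were the lower ones without overlap, although the lowest control and the highest treated library were close. BCL2L11 fell by 0.64 on the log2 scale (SE 0.15, edgeR adjusted p = 0.0061), 1.55-fold, and by 0.76 without TOM-1 control replicate 3. In a fit on the 6 TOM-1 libraries alone, the adjusted p was 0.0518. BCL2L11 (ENSG00000153094, chromosome 2, 111119378 to 111168447) shares 10.9% of its exonic bases with MIR4435-2HG on the opposite strand, which had 6 to 37 counts per library.

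Among the anti-apoptotic members, BCL2, the target of venetoclax, was measured at 229, 234 and 104 CPM in TOM-1 control and 193, 206 and 182 CPM with ADI-PEG20. The treated libraries fell between the third control and the other two. The log2 fold change was 0.03 (SE 0.24, edgeR adjusted p = 0.957), with a 95% interval from -0.48 to 0.55. Without TOM-1 control replicate 3 the direction turned, and BCL2 was lower by 0.26 (log2 -0.26, SE 0.08, adjusted p = 0.00821), a fold of 1.20.

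BCL2L1 encodes BCL-XL. Its levels were 31.1, 30.1 and 47.4 CPM in TOM-1 control and 49.4, 49.4 and 43.2 CPM with ADI-PEG20. The third control lay among the treated libraries and the other two below all of them. For BCL2L1 the log2 fold change stood at 0.39 (SE 0.17, adjusted p = 0.113 in edgeR), and without that control it was 0.63 (SE 0.11, adjusted p = 7.83e-05), a fold of 1.54. In GENCODE 43.0% of the exonic bases of BCL2L1 lie opposite ABALON, which had at most 8 counts in any library.

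MCL1, a short-lived protein that binds NOXA and BIM, was the anti-apoptotic member that did not pass the threshold with or without that library. It stood at 219, 216 and 117 CPM in TOM-1 control and 219, 213 and 203 CPM with ADI-PEG20. Apart from the third control, the libraries of the groups were intermixed. MCL1 had a log2 fold change of 0.20 (95% interval -0.22 to 0.62, edgeR adjusted p = 0.473), and -0.04 (-0.18 to 0.09, adjusted p = 0.679) without TOM-1 control replicate 3.

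The effectors also depended on that library. BAX was measured at 121, 120 and 263 CPM in TOM-1 control and 177, 166 and 173 CPM with ADI-PEG20. The treated libraries were tightly grouped between the controls. The log2 fold change of BAX was 0.03 (SE 0.25, edgeR adjusted p = 0.962), and 0.51 (SE 0.08, adjusted p = 9.51e-06) without that control, a fold of 1.42. With DESeq2 size factors and all libraries it turned to -0.02.

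BAK1, the effector that resides in the outer membrane, stood at 45.0, 39.5 and 71.0 CPM in TOM-1 control and 45.4, 48.8 and 43.4 CPM with ADI-PEG20. The groups overlapped with and without the third control. The log2 fold change was -0.18 (95% interval -0.59 to 0.23, edgeR adjusted p = 0.533) and 0.11 (-0.11 to 0.33, adjusted p = 0.445) without TOM-1 control replicate 3. Of its exonic bases 4.1% lie opposite GGNBP1, which had at most 16 counts.

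**Figure D2:**
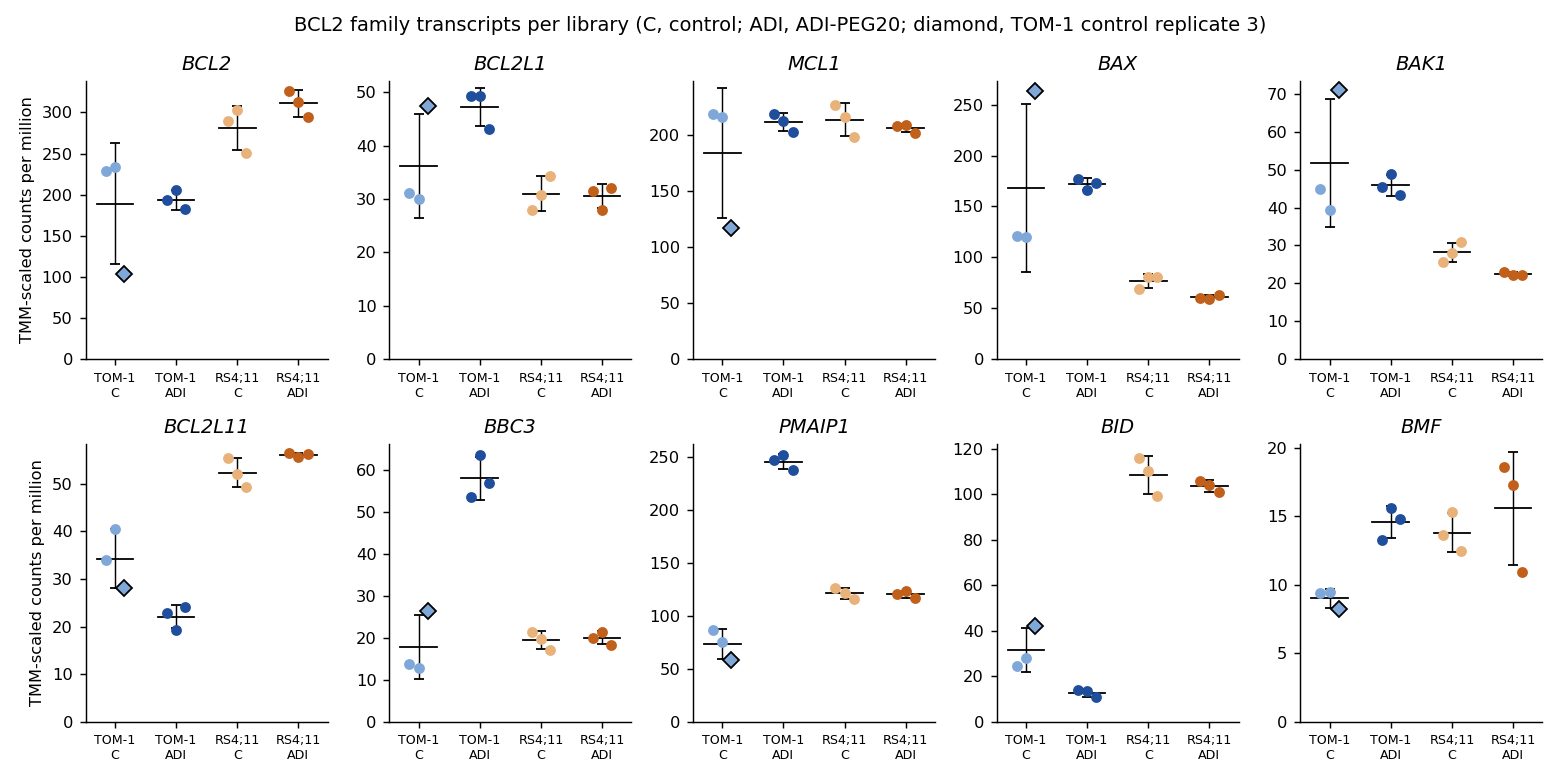
TMM-scaled CPM of the 10 members (vertical axes, each from 0) in the 4 groups, with 1 point per library, the group mean as a bar and the SD as an error bar. PMAIP1 and BBC3 in treated TOM-1 stand above all other libraries, BID in TOM-1 stands below RS4;11, and the diamond of TOM-1 control replicate 3 widens the control SD of BAX to 82.3 CPM.

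In RS4;11 the estimated changes of PMAIP1 and BBC3 under the same treatment were close to 0. PMAIP1 was measured at 126, 122 and 116 CPM in control and 121, 123 and 117 CPM with ADI-PEG20. BBC3 stood at 21.5, 19.7 and 17.1 CPM and at 20.0, 21.5 and 18.4 CPM. The groups overlapped for both genes. Log2 fold changes were -0.01 for PMAIP1 (95% interval -0.30 to 0.28) and 0.04 for BBC3 (-0.48 to 0.55), each with an edgeR adjusted p of 1.0.

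BID stood at 116, 110 and 99.3 CPM in RS4;11 control and 106, 104 and 101 CPM with ADI-PEG20, with a log2 fold change of -0.07 (95% interval -0.47 to 0.33). BMF stood at 13.6, 15.3 and 12.5 CPM and at 18.6, 17.3 and 10.9 CPM. Treated replicate 3 was the lowest of the 6 and the other two were the highest. BCL2L11 was measured at 55.5, 52.1 and 49.4 CPM in control and 56.5, 55.7 and 56.2 CPM with ADI-PEG20. Its treated libraries were the higher ones without overlap, by a narrow margin, and the log2 fold change was 0.10 (SE 0.14, 95% interval -0.21 to 0.42).

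Of the 10 members 0 were called in RS4;11 by edgeR, against 0.0% of 17349 genes (0.0% in each direction). None of the members, and 325 of all genes, had an unadjusted p under 0.05, and DESeq2 called 0 members. With TOM-1 control replicate 3 left out, 3 members (BCL2, BAX and BAK1) and 2207 of 18321 genes had an unadjusted p under 0.05. For 3 members control and treated libraries did not overlap, with BAX and BAK1 lower and BCL2L11 higher, against 16.8% of all genes (9.05% lower and 7.72% higher). BAX stood at 68.9, 80.7 and 80.9 CPM in RS4;11 control and 60.3, 59.4 and 63.3 CPM with ADI-PEG20. BAK1 stood at 25.7, 28.0 and 30.8 CPM in control and 23.1, 22.3 and 22.1 CPM with ADI-PEG20. For both effectors every treated library was below every control. Their log2 fold changes were -0.33 for BAX and -0.32 for BAK1, which did not pass the threshold.

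TOM-1 control replicate 3 entered this test through the shared estimate of the spread. Without it BAX was called lower in RS4;11 (log2 -0.33, SE 0.07, edgeR adjusted p = 0.0431) and BAK1 was not (-0.32, SE 0.10, adjusted p = 0.152), and 1 of 10 members was then called, against 0.317% of 18321 genes (0.202% higher and 0.115% lower). When 1 of the 6 RS4;11 libraries was left out as well, BAX was called only without RS4;11 control replicate 1, and its adjusted p ran from 0.0247 to 0.165. In the fit on the 6 RS4;11 libraries alone the adjusted p of BAX was 0.15. BCL2 stood at 290, 303 and 251 CPM in RS4;11 control and 326, 313 and 294 CPM when treated. MCL1 stood at 227, 216 and 198 CPM and at 208, 209 and 202 CPM. BCL2L1 stood at 27.9, 30.7 and 34.4 CPM and at 31.6, 27.9 and 32.0 CPM. The groups overlapped for each of these 3 genes.

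**Figure D3:**
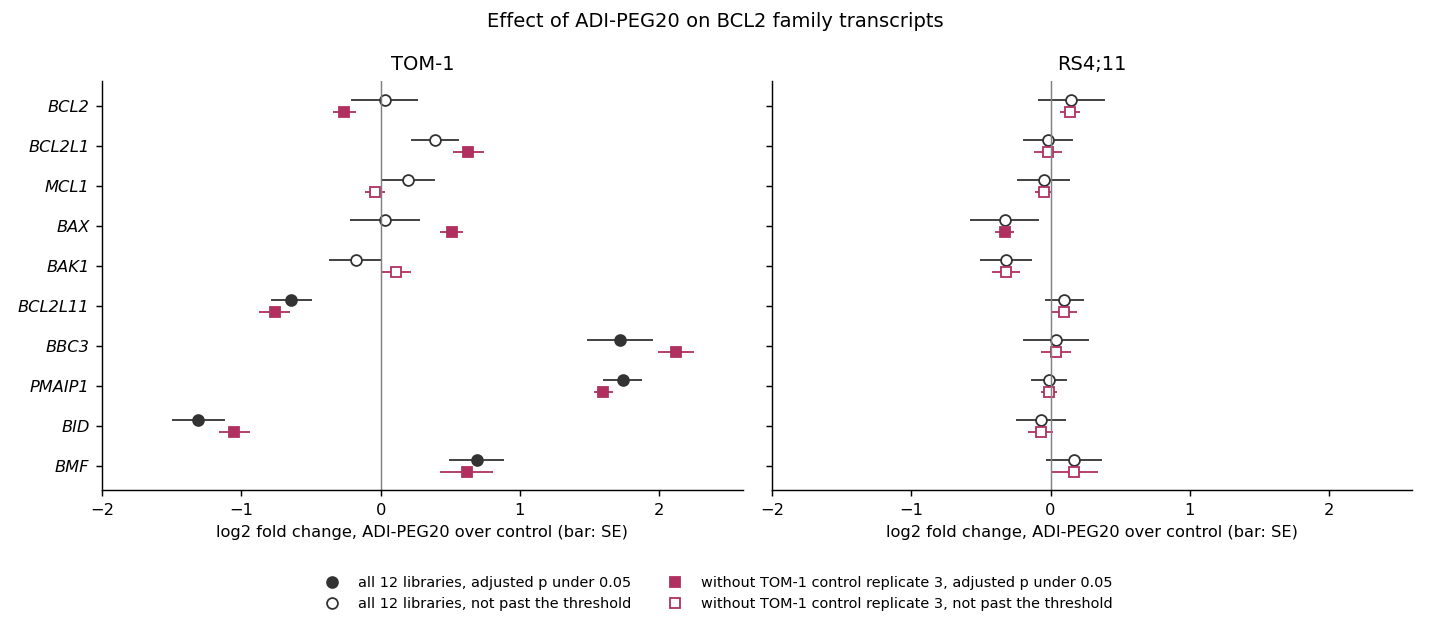
Log2 fold change of ADI-PEG20 over control (horizontal axis, bars show the SE) for the 10 members in TOM-1 and RS4;11, with all 12 libraries (circles) and without TOM-1 control replicate 3 (squares). Filled symbols passed an adjusted p of 0.05: in TOM-1 these are the 5 BH3-only genes with all libraries and 8 members without that control, and in RS4;11 BAX alone without it.

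The effects in the lines were compared by testing their difference, TOM-1 minus RS4;11. It passed the threshold for 4 of the 10 members, against 11.9% of all genes (5.89% higher and 6.05% lower), and all 4 were BH3-only genes. PMAIP1 responded more in TOM-1, by 1.75 on the log2 scale (SE 0.19, edgeR adjusted p = 0.000271), as did BBC3 by 1.68 (SE 0.34, adjusted p = 0.00839). The difference was -1.24 for BID (SE 0.26, adjusted p = 0.0109) and -0.74 for BCL2L11 (SE 0.20, adjusted p = 0.0367). The call for BCL2L11 was weak: when libraries were left out 1 at a time, it held in 2 of 12 fits, those without TOM-1 control replicate 1 or 3, with an adjusted p of up to 0.0909 in the others. For BMF, which was called in TOM-1 and not in RS4;11, the difference was 0.52 (95% interval -0.10 to 1.13, adjusted p = 0.264), so that its effects were not shown to differ between the lines.

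With TOM-1 control replicate 3 left out, the difference passed for 8 of 10 members, against 30.4% of genes (15.7% higher and 14.7% lower). Those gained were BAX (0.84, edgeR adjusted p = 1.66e-06), BCL2L1 (0.65, adjusted p = 0.00185), BAK1 (0.43, adjusted p = 0.026) and BCL2 (-0.40, adjusted p = 0.00393). BAX and BAK1 thus had higher effects in TOM-1 than in RS4;11, and BCL2 a lower one. The differences for BBC3, PMAIP1, BCL2L11 and BID were then 2.08, 1.61, -0.86 and -0.98. MCL1 (0.01, 95% interval -0.17 to 0.19) and BMF (0.45) were not called.

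The lines also differed before treatment. BID was the member furthest apart, with all TOM-1 controls below all RS4;11 controls and a log2 difference of -1.78 (SE 0.19, edgeR adjusted p = 1.47e-05), 3.44-fold. PMAIP1 (-0.73), BCL2L11 (-0.61) and BMF (-0.61) were also lower in TOM-1 control. BAX (1.13, adjusted p = 0.0039) and BAK1 (0.88, adjusted p = 0.00331) were higher. Thus 6 of 10 members were called, 2 higher and 4 lower, against 34.7% of genes (16.2% higher and 18.4% lower). Nor did libraries of the lines overlap for these 6 members and for BCL2, 5 of them lower in TOM-1 and 2 higher, against 42.7% of genes (24.4% lower and 18.2% higher). Without TOM-1 control replicate 3, BAX and BAK1 were still higher, by 0.65 and 0.59. In addition BBC3 (-0.55, adjusted p = 0.00113) and BCL2 (-0.29, adjusted p = 0.00345) were then called lower, which made 8 of 10 against 52.8% (25.4% higher and 27.5% lower). The call for BMF depended on single libraries: it was lost in 3 of 12 fits (without RS4;11 control replicate 1 or 2 or TOM-1 ADI-PEG20 replicate 3), with an adjusted p of up to 0.0967. MCL1 and BCL2L1 were not called in either fit.

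Under ADI-PEG20, a comparison that uses none of the TOM-1 controls, 8 of 10 members differed between the lines, 5 higher and 3 lower in TOM-1, against 47.2% of genes (23.1% higher and 24.0% lower). The same number was called with TOM-1 control replicate 3 left out of the estimate of the spread, against 62.9% (31.4% higher and 31.5% lower). BID was 8.16-fold lower in TOM-1 (log2 -3.03, SE 0.20, edgeR adjusted p = 2.15e-07), and BCL2L11 was lower by 1.35 on the log2 scale. BBC3 (1.54), BAX (1.50), BAK1 (1.03) and PMAIP1 (1.02) were higher in TOM-1. PMAIP1 was therefore lower in TOM-1 than in RS4;11 in control culture and higher under treatment. BCL2L1 was higher in treated TOM-1 (0.63, adjusted p = 0.0105) and BCL2 lower (-0.68, adjusted p = 0.032). The call for BCL2 depended on single libraries too, being lost in 5 of 12 fits (without any treated TOM-1 library, or RS4;11 ADI-PEG20 replicate 1 or 2). That for BCL2L1 was lost in 3 of 12 (without TOM-1 ADI-PEG20 replicate 1 or 2, or RS4;11 ADI-PEG20 replicate 2). MCL1 (0.04) and BMF (-0.10) were not called.

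Levels of different genes were compared per length, as CPM per kilobase of exonic sequence in GENCODE release 29. In treated TOM-1 PMAIP1 was the most abundant member, at 110.0 CPM per kb, ahead of BAX at 66.5 and MCL1 at 48.4. In RS4;11 PMAIP1 also led, at 54.3 CPM per kb in control and 54.0 when treated, followed by MCL1 at 48.9 and 47.2. The lowest PMAIP1 library and the highest MCL1 library met in RS4;11 control, and the libraries of the pair were apart when treated. In TOM-1 control BAX was first at 65.1 CPM per kb, followed by MCL1 at 42.1 and PMAIP1 at 32.8, with overlap between each neighbouring pair. Without replicate 3 that order changed, and MCL1 (49.8), BAX (46.7) and PMAIP1 (36.1) followed each other with no overlap between their libraries.

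The lowest level belonged to BMF in all 4 groups, from 1.66 to 2.86 CPM per kb. BID changed place between the lines, at 24.4 CPM per kb in RS4;11 control, next to BCL2 at 23.9, and at 2.85 in treated TOM-1, next to BMF at 2.67. The libraries overlapped for BID and BCL2 in RS4;11 control and for BID and BMF in treated TOM-1. BBC3, at 5.58 CPM per kb in TOM-1 control and 18.2 when treated, moved from below BCL2L1 (10.9) to above it (14.3). BCL2 was more abundant than BCL2L1 in every group, at 16.1 to 26.4 against 9.20 to 14.3 CPM per kb, although their libraries overlapped in TOM-1 control, where replicate 3 had the reverse order.

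**Figure D4:**
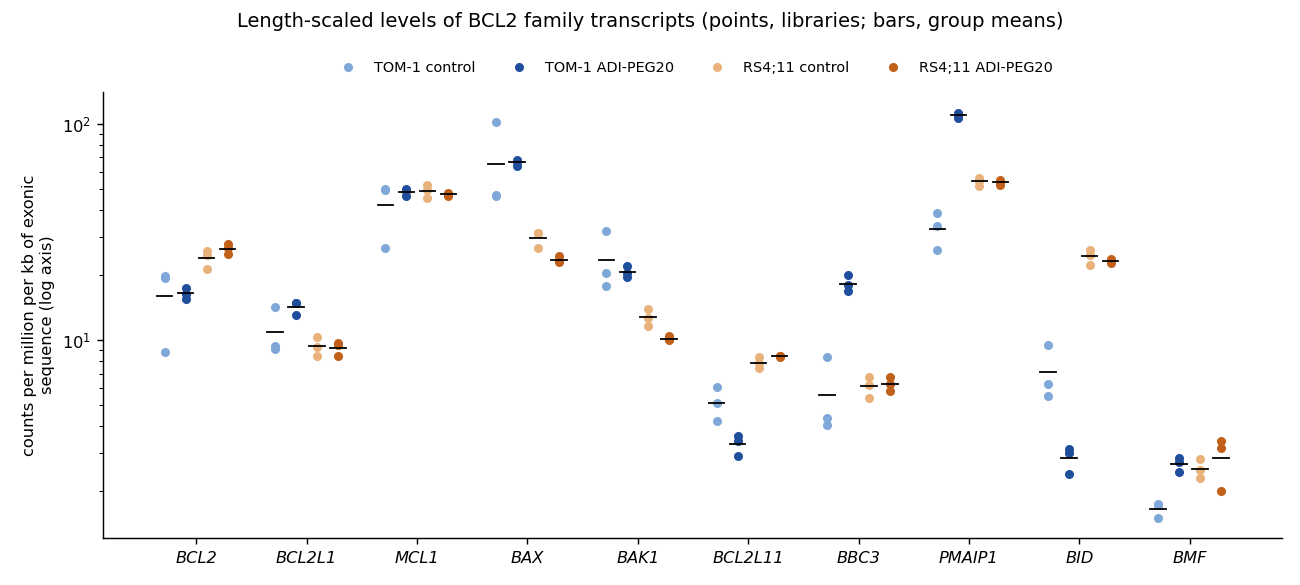
Level of each member as CPM per kb of exonic sequence (vertical axis, log scale) in the 4 groups, with 1 point per library and bars for group means. PMAIP1 in treated TOM-1, at a mean of 110.0, is the highest group and BMF in TOM-1 control, at 1.66, the lowest.

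Other genes of the pathway were taken from lists of relatives, executioners, receptors, partners and regulators. Of 12 further BCL2 family genes 9 were tested in TOM-1, of which 3 rose and 0 fell, with a median log2 fold change of 0.74. Without TOM-1 control replicate 3, 4 rose and 0 fell, with a median of 0.54. BCL2L13, a mitochondrial relative also linked to mitophagy, went from 50.6, 44.0 and 36.9 to 104, 91.2 and 99.0 CPM (log2 1.16, SE 0.16, edgeR adjusted p = 0.000254). BNIP3L, a mitophagy receptor, rose by 0.76 (adjusted p = 0.00252). The third with all 12 libraries was BCL2L2, an anti-apoptotic relative (0.74), of whose exonic bases 19.4% belong also to a read-through gene on the same strand. In TOM-1 control replicate 3 BCL2L2 stood at 0.598 times the mean of replicates 1 and 2. HRK, a BH3-only gene, had 0.369, 1.13 and 0 CPM in control and 3.81, 2.90 and 3.54 CPM in treated TOM-1. It was at 0 in all RS4;11 libraries. HRK was called only without TOM-1 control replicate 3 (adjusted p = 0.014). BCL2L2 and HRK were named after their values were seen.

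Of 14 genes of the apoptosome, the caspases and their inhibitors 5 rose and 3 fell, with a median of -0.10. There were 6 and 4 without TOM-1 control replicate 3, with a median of -0.12. BIRC3, an inhibitor of apoptosis, had 6, 0 and 0 counts in the controls and 46, 42 and 78 in treated TOM-1 (edgeR adjusted p = 0.0105). DIABLO, which relieves such inhibitors, rose by 1.46 at 0.483 to 2.79 CPM. Its count is uncertain, since 29.6% of its exonic bases are shared with genes on the same strand, 1 of them also named DIABLO. ENDOG, a mitochondrial nuclease, fell by 2.59, and by 1.85 without TOM-1 control replicate 3, with 39.2% of its exonic bases opposite SPOUT1. BIRC5, or survivin, fell by 1.07, and by 0.63 without that library.

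Of 11 death receptor genes 5 rose and 1 fell, with a median of 0.63. Without TOM-1 control replicate 3 the counts were the same and the median was 0.57. TNFRSF10B, a receptor for TRAIL, went from 23.3, 24.8 and 15.8 to 107, 114 and 102 CPM in TOM-1 (log2 2.33, SE 0.17, edgeR adjusted p = 4.93e-06). All treated libraries were far above the controls. Its effect was greater than in RS4;11 (difference 2.74, adjusted p = 7.11e-05). FAS, a death receptor at low level, stood at 1.36, 0.078 and 0 CPM in control and 3.90, 1.91 and 3.30 CPM when treated (adjusted p = 0.0404). TRADD, an adaptor of the TNF receptor, fell by 1.24 (adjusted p = 0.00134), with TOM-1 control replicate 3 at 1.56 times the mean of replicates 1 and 2. BID, which carries this signal to mitochondria, fell in the same libraries, as given above.

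Of 10 genes for membrane docking, tethering and turnover of MCL1 protein, 1 rose and 3 fell, with a median of -0.07. Without TOM-1 control replicate 3 these were 3 and 4, with a median of -0.10. VDAC1, a channel of the outer membrane, fell by 1.36 (SE 0.12, edgeR adjusted p = 1.56e-05), from 365, 339 and 412 to 137, 152 and 147 CPM. VDAC3, another such channel, fell by 1.11, with TOM-1 control replicate 3 at 1.38 times the mean of replicates 1 and 2. MARCHF5, a ubiquitin ligase of the outer membrane, rose by 0.52 (adjusted p = 0.00331).

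Of 10 transcription factors known to act on the family 3 rose and 3 fell, with a median of 0.07. There were 4 and 4 without TOM-1 control replicate 3, with a median of 0.03. DDIT3, or CHOP, rose by 2.22 (SE 0.28, edgeR adjusted p = 0.000168), and 31.6% of its exonic bases lie opposite other genes. FOXO1, a forkhead factor, rose by 1.35 (adjusted p = 0.00228). In TOM-1 control replicate 3, FOXO1 stood at 0.456 times the mean of replicates 1 and 2, and DDIT3 at 2.17 times. MYC, at 462, 426 and 490 CPM in control and 305, 289 and 279 CPM when treated, fell by 0.66 (adjusted p = 0.000452). ATF4, the factor of the amino acid response, fell by 0.59, and by 0.26 without TOM-1 control replicate 3.

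Of 14 further p53 targets 9 rose and 1 fell, with a median of 0.68. There were 10 and 1 without TOM-1 control replicate 3, with a median of 0.66. CDKN1A, the cell cycle inhibitor p21, rose by 1.74 (SE 0.14, edgeR adjusted p = 7.16e-06), from 95.7, 88.2 and 127 to 351, 357 and 327 CPM. GADD45A, a stress sensor, rose by 1.65, with TOM-1 control replicate 3 at 1.41 times the mean of replicates 1 and 2. FDXR, a mitochondrial reductase, fell by 1.13, and by 0.49 without TOM-1 control replicate 3. These lists stand beside 15.9% of all genes higher, 15.9% lower and a median of 0.05. Without TOM-1 control replicate 3 the shares were 21.8% higher and 19.8% lower of 18321 genes, with a median of 0.00. In RS4;11, 0 genes of the 6 lists were called by edgeR, and list medians ran from -0.17 to 0.04. TNFRSF10B (-0.40) alone had an unadjusted p under 0.05. When TOM-1 control replicate 3 was left out, 0 were called and each list held 1 to 5 genes at an unadjusted p under 0.05. Over all genes there were then 2207 of 18321 at that p.

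**Figure D5:**
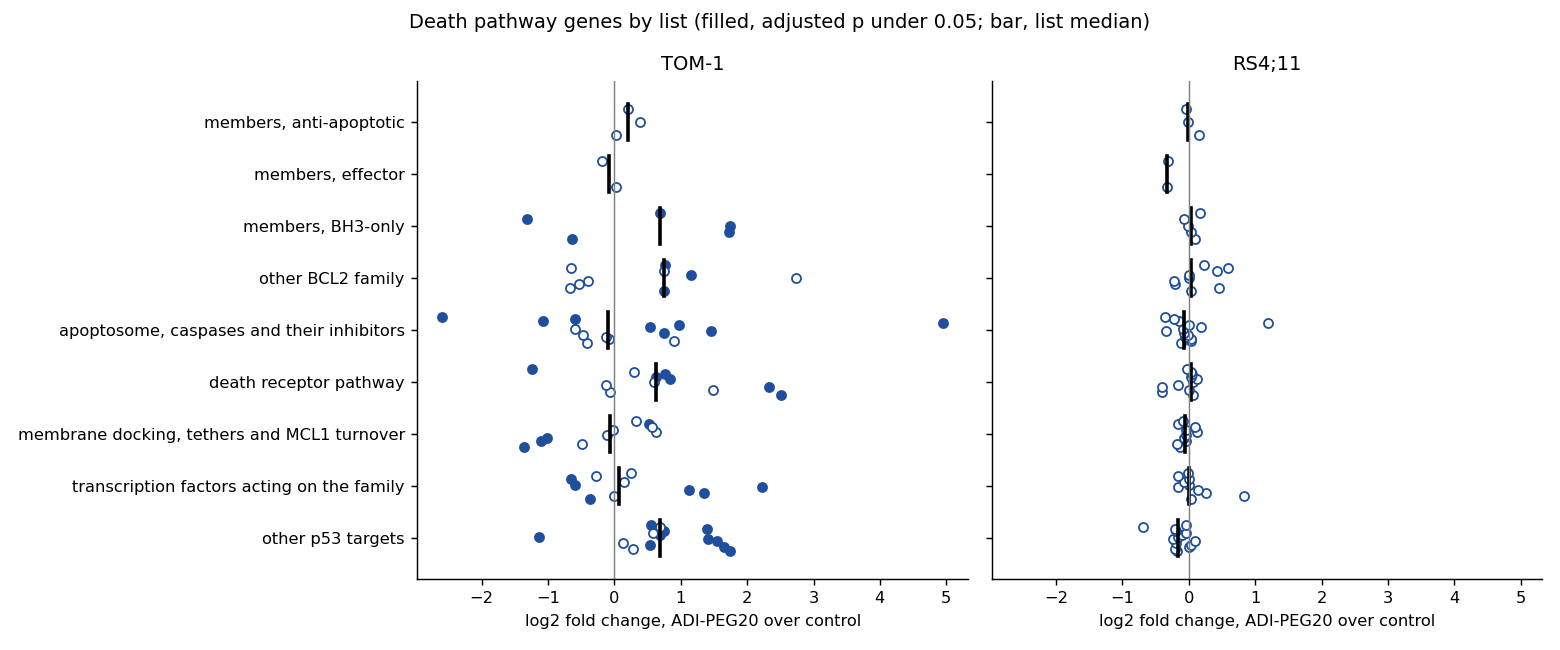
Log2 fold change of ADI-PEG20 over control (horizontal axis, all 12 libraries) for tested genes of each list in TOM-1 and RS4;11, with 1 point per gene, filled where the adjusted p was under 0.05, and a bar at the list median. In TOM-1 the BH3-only members spread from -1.31 to 1.74, and no point is filled in RS4;11.

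For the members called in TOM-1, the 3 tested genes with the most similar pattern over the 11 libraries without TOM-1 control replicate 3 were listed by Pearson's r of log2 CPM. These libraries share 4 groups, so that r mostly measures likeness of group levels, and it is given as a description. For BBC3 they were IRF2BP2 (r = 0.996), SCFD1 (0.995) and ITPRID2 (0.993). PMAIP1 was closest to HSPA9 (0.993), ZC3H12C (0.990) and again ITPRID2 (0.989). BID was closest to FAM120A (0.999), HDAC1 (0.997) and SREBF1 (0.997), and BCL2L11 to ARHGAP1 (0.992), KHDC1 (0.990) and SPIDR (0.990). For BMF the nearest, SNHG29 (0.924), F13A1 (0.920) and TMEM86A (0.919), were less alike.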

How the data were processed

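The authors deposited 1 table of raw read counts per Ensembl gene, not normalized. Per the submitters' processing notes the tools were STAR, SAMtools and featureCounts, with hg38 as build. Their versions, the annotation release, the use of strand and the treatment of shared or multiply mapped reads are not given in the sources used here, so reads of overlapping genes can have gone to either gene or been dropped. Per the labels' protocols RNA came from a column kit with poly(A) capture. Groups and replicate numbers came from sample titles, and columns were matched by the names that the labels give. Of 60664 identifiers, 60463 had a symbol and 58396 had exons in GENCODE release 29.

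Counts were fitted in R 4.3.3 with edgeR 4.0.16: filterByExpr, TMM scaling, 1 group-means model over all 12 libraries, and the quasi-likelihood test, its p adjusted by Benjamini-Hochberg over all tested genes, with a threshold of 0.05. The SE is the log2 fold change divided by the square root of F. CPM are TMM-scaled. The script was tested on simulated data. Alternatives were DESeq2 size factors, a replicate block, no filter, DESeq2 1.42.0 (Wald test), each library left out, and a fit on only those libraries that a contrast compares. Added after seeing the data were these last fits and the Wald test without TOM-1 control replicate 3, and that library left out together with each RS4;11 library. The 10 members are all named. From each pathway list, of the non-members called in TOM-1 with a mean of at least 1 CPM there, up to 2 with the largest change in each direction are named. Figures were drawn with matplotlib 3.10.9. Of the B lymphoblast markers, 1 is not reported here. The members and lists were chosen with earlier results of these data known. Members had at least 149 counts in each library, and reads are not independent molecules.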

Additional observations from a re-analysis of the deposited data

Results flagged for a closer look

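For 4 BH3-only genes the effect of ADI-PEG20 differed between the lines by a test of the difference, TOM-1 minus RS4;11 (edgeR, adjusted p, all 12 libraries). The difference on the log2 scale was 1.75 for PMAIP1 (adjusted p = 0.000271), 1.68 for BBC3 (adjusted p = 0.00839), -1.24 for BID (adjusted p = 0.0109) and -0.74 for BCL2L11 (adjusted p = 0.0367). All 3 treated TOM-1 libraries lay beyond all 3 TOM-1 controls for each of these genes, as they did for 46.2% of all genes tested. This describes the same values that the test used. In RS4;11 the groups overlapped for PMAIP1, BBC3 and BID. For BCL2L11 the treated libraries there were slightly higher without overlap, as for 7.72% of all genes tested. The difference for BCL2L11 missed the threshold in 10 of 12 fits in which libraries were left out 1 at a time.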

How the results depend on the processing

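Of 969 values of single members under the alternatives, 846 kept their direction and their side of the threshold, and 66 changed sign. With the direction kept, 28 passed the threshold only under the alternative and 29 only in the main edgeR fit. Values that changed sign were counted apart whether or not they passed, as BCL2 in TOM-1 did without TOM-1 control replicate 3. PMAIP1, BBC3, BMF, BID and BCL2L11 kept their direction in TOM-1 in every fit run. The count of members called in TOM-1 went from 5 to 8 without TOM-1 control replicate 3, and was 8 there also with the DESeq2 Wald test and with the TOM-1 libraries alone. Leaving out 1 library at a time it ran from 4 to 8. In RS4;11 it ran from 0 to 1, and was 1 without that control with the Wald test. For the difference of the effects it ran from 3 to 8, and was 8 without that control with the Wald test. Between the lines it ran from 5 to 8 in control culture and from 6 to 8 under ADI-PEG20, and the fit on the control libraries alone called 4. The share of all genes called moved as well when TOM-1 control replicate 3 was left out. It went from 31.9% to 41.6% in TOM-1, from 0.0% to 0.317% in RS4;11 and from 11.9% to 30.4% in the difference. Between the lines it went from 34.7% to 52.8% in control culture and from 47.2% to 62.9% under ADI-PEG20. For the other fits that share is not given here, so their counts are not read as particular to the family. The cause of these shifts was not tested.

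Sign changes were mostly near 0. With all libraries, BAX in TOM-1 was -0.02 (log2) with DESeq2 size factors, -0.02 with the Wald test and -0.01 with the TOM-1 libraries alone. PMAIP1 in RS4;11 was 0.01 with no filter and 0.00 with the Wald test, and MCL1 between treated lines was -0.01 with DESeq2 size factors and with the Wald test. Without TOM-1 control replicate 3, the Wald test and the libraries of the contrast alone gave, in TOM-1, -0.27 and -0.27 for BCL2, -0.05 and -0.06 for MCL1 and 0.10 and 0.10 for BAK1, and between control cultures -0.04 and -0.04 for BCL2L1 and 0.00 and 0.00 for MCL1. There the Wald test also gave -0.01 for MCL1 in the difference and -0.00 between treated lines. When 1 library was left out, the log2 fold change in TOM-1 ran from -0.26 to 0.17 for BCL2, -0.04 to 0.31 for MCL1, -0.19 to 0.51 for BAX and -0.37 to 0.11 for BAK1. In RS4;11, also with TOM-1 control replicate 3 left out in addition, it ran from -0.09 to 0.06 for BCL2L1, -0.10 to 0.01 for MCL1, -0.05 to 0.13 for BBC3 and -0.04 to 0.03 for PMAIP1. In the difference it ran from -0.40 to 0.03 for BCL2 and -0.05 to 0.43 for BAK1. Between control cultures it ran from -0.02 to 0.30 for BCL2L1, -0.40 to 0.02 for MCL1 and -0.55 to 0.01 for BBC3, and between treated cultures from -0.06 to 0.03 for MCL1 and -0.38 to 0.04 for BMF.

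Deviations of same-numbered libraries from their group means correlated from -0.05 to 0.26 over 18 pairs, with 2 over 0.1. Between control and ADI-PEG20 the values were 0.10, 0.08 and 0.26 in RS4;11 and -0.02, 0.00 and -0.04 in TOM-1. Differently numbered libraries are not given beside these, so whether the numbers pair the libraries was not decided. With the replicate block 5 members were called in TOM-1, 0 in RS4;11, 3 in the difference, 7 between control cultures and 8 between treated cultures. The share of all genes called in that fit is not given here. BCL2L11 was the member lost in the difference (edgeR, adjusted p = 0.0572), as also with no filter (0.0721). BMF between control cultures was lost with no filter (0.0712). The count there stayed at 6, 2 higher and 4 lower, since another member was called lower. In the fit on the control libraries alone BMF (0.0687) and BCL2L11 (0.0577) were lost. With 3 libraries a group, RS4;11 intervals of the log2 fold change with all 12 libraries still spanned -0.30 to 0.28 for PMAIP1 and -0.48 to 0.55 for BBC3.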
